A study of Mus musculus with 15 samples.

Results

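The cytosolic ribosomal protein genes are the protein-coding genes whose GENCODE M21 symbols begin with Rpl or Rps, without the Rps6k kinases. The rule finds 92 genes in the annotation, of which 91 have a row among the 38561 gene rows of the count files. Rpl24 was not analysed here. By name, 34 of the 91 belong to the small subunit, 56 to the large subunit, and 1, Rps19bp1, encodes a protein that binds Rps19 and is not itself a ribosomal protein. The rule also takes in 6 genes whose symbols carry the -ps of a pseudogene although the annotation calls them protein-coding.

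The libraries came from Purkinje cells (PCs), the output neurons of the cerebellar cortex, cut by laser from sections of mouse cerebellum at P0, P4, P8, P14 and P21. There were 3 biological replicates at each age and 15 libraries in all, from male mice whose strain label reads C56/BL6. At P4 to P21 single PC bodies were cut, whereas at P0 the cut was made around clusters of PCs, so the youngest group was collected in another way. No group carries a transgene, so age is the one variable among the labels.

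Each ribosome is built from a small subunit, which reads the mRNA, and a large subunit, which joins the amino acids, and each subunit holds one copy of most of its proteins. The mRNAs of these proteins start with a run of pyrimidines, the terminal oligopyrimidine tract, through which the mTOR pathway controls their translation, and growing cells carry them in large amounts. Many of the genes have processed pseudogenes elsewhere in the genome. Because reads were kept only where they mapped to a single place, genes with near-identical copies can lose reads, and levels between the genes are uncertain for that reason.

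Counts on genes ranged from 3409371 to 7814951 per library. The libraries carried Purkinje markers as labelled: all 6 markers on the list, Calb1 and Pcp2 among them, rose with age, and their summed level went from 5340 CPM (counts in proportion to a library size adjusted by TMM) at P0 to 42941 CPM at P21. Other RNA moved with age too. The 9 glial markers were Slc1a3, Gdf10, Sept4, Aqp4, Gfap, Aldh1l1, Aldoc, Fabp7 and Sox9. Their summed levels ranged from 4107 to 5745 CPM at P0 and from 13988 to 22116 CPM at P21. Only 3 of the 9 rose and 2 fell, so the sum does not speak for every marker. Whether all of this RNA came from glia was not tested. Summed levels of 6 granule cell progenitor markers ranged from 409 to 463 CPM at P0 and from 6.34 to 8.01 CPM at P21, with 3 of the 5 tested markers falling and the defining marker Atoh1 at 0 at every age. All 5 oligodendrocyte markers rose, from a mean sum of 22.4 to 569 CPM. Summed levels of 3 vascular markers, of which 1 fell, ranged from 33.5 to 121 CPM at P0 and from 16.01 to 35.4 CPM at P21, a difference in the same direction as the ribosomal protein genes. Per the paper, only reads lying wholly inside a feature were counted. Reads that HTSeq assigned to no feature, which need not lie outside genes, made up 24.1 to 29.8% of the tallied reads at P0 and 17.2 to 19.1% at P21. These values moved with age alongside the ribosomal protein genes, and their part in the results below was not tested.

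The ribosomal protein genes fell together. They took 3.34% ± 0.381 (SD, n = 3) of the counts on genes at P0, 2.93% ± 0.274 at P4 and 2.17% ± 0.154 at P8. By P14 their share was 1.08% ± 0.102, and by P21 it was 0.827% ± 0.0791. The lowest P0 library stood at 3.07% and the highest P21 library at 0.902%, and the P0 and P4 libraries overlapped while no P14 or P21 library reached any P8 library. Small subunit genes went from 1.48% ± 0.189 to 0.332% ± 0.0261, and large subunit genes from 1.86% ± 0.193 to 0.492% ± 0.0542. Without the 3 genes with the most counts the shares were 2.79% at P0 and 0.706% at P21. A share of counts is relative to all other RNA in the library, and in bulk samples such as these fewer cells of a type and less RNA per cell cannot be told apart.

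**Figure D1:**
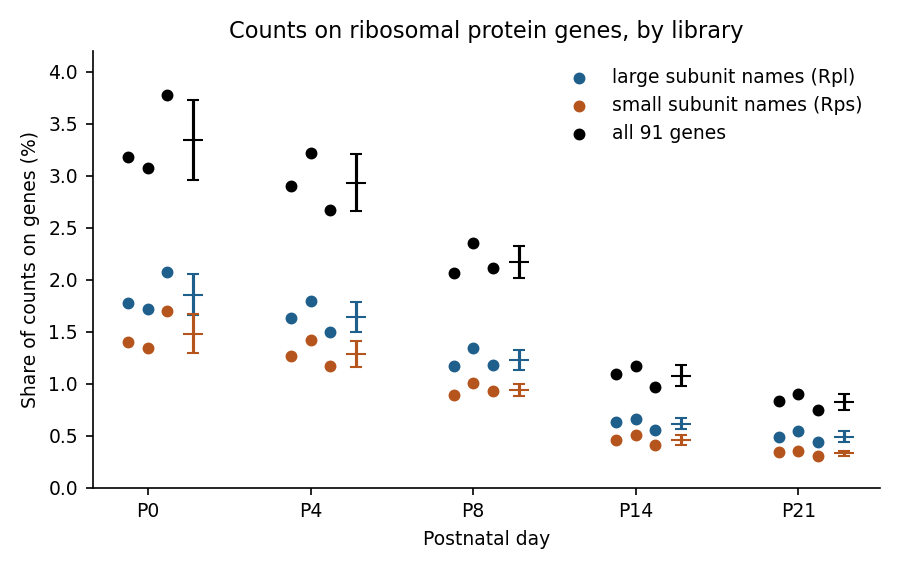
Share of the counts on genes (%, vertical axis) taken by the 91 ribosomal protein genes and by their small and large subunit names, for each library (points) at each postnatal day, with the mean and SD of the 3 libraries beside them. The P14 and P21 libraries reach at most 1.17%, and the P0, P4 and P8 libraries lie at 2.06% or above.

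Of the 91 genes, 83 passed the filter on low counts and were tested. The remaining 8 had between 0 and 38 counts over all libraries and are Rpl10-ps3, Rpl10l, Rpl36-ps4, Rpl36a-ps1, Rpl39l, Rpl3l, Rpl9-ps1 and Rps27. In the edgeR quasi-likelihood test of postnatal day, 75 of the 83 fell at an adjusted p under 0.05, against 14.1% of all 14293 genes tested. No gene of the 83 rose, against 12.1% of all genes, and none rose at an unadjusted p under 0.05 or in DESeq2's and limma's tests. The median slope of the 83 was −0.081 log2 units per day, with quartiles at −0.10 and −0.066, beside a median of −0.0077 over all genes tested. Without the P0 libraries, which were collected in another way, 71 fell. The slope was below 0 in 82 of the 83, and in 55.1% of all genes.

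The size of the fall differed between genes. The ratio of the mean CPM at P0 to that at P21 ranged from 0.935 to 6.93, with a median of 2.87. In 73 of the 83 genes every P14 and P21 library lay below every P0 and P4 library, an order seen in 7.14% of all genes tested. When age was a factor with no fixed direction, 68 of the 83 changed, against 19.3% of all genes. The 33 small subunit genes tested had a median slope of −0.099, with 30 of them falling, and the 49 large subunit genes a median slope of −0.073, with 45 falling. The difference between the subunits was not tested.

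**Figure D2:**
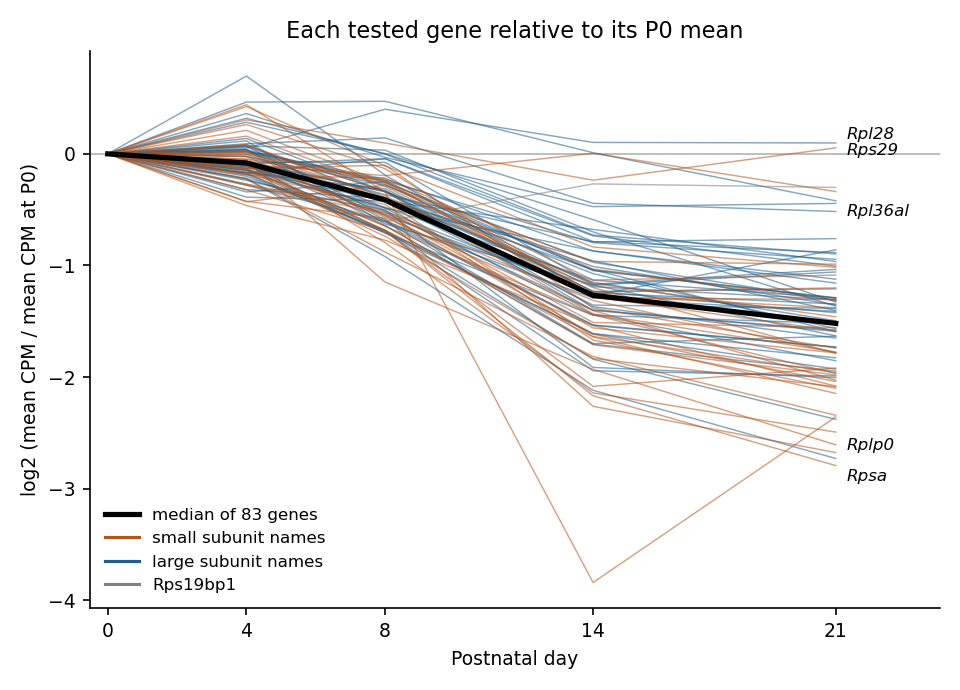
Mean CPM of each of the 83 tested genes relative to its own mean at P0 (log2, vertical axis) against postnatal day, as 1 line per gene, coloured by subunit name, with the median in black. The median stood at 94.5% of the P0 level at P4 and 75.1% at P8, then 41.5% by P14 and 34.9% by P21, and the line that dips lowest at P14 is Rps12, with 143 counts in all libraries together.

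The largest step of the fall lay between P8 and P14, and the ages are not evenly spaced. From P0 to P4 no gene of the 83 differed in edgeR's test of the step at an adjusted p under 0.05 (0.231% of all genes were lower and 1.74% higher), 1 was lower at an unadjusted p under 0.05, and the median log2 change was −0.081. From P4 to P8 the median change was −0.37 and 1 gene, Rps19, was lower (log2 change −0.74, adjusted p = 0.0293), against 0.252% of all genes, and none was higher, against 0.882%. From P8 to P14 the median change was −0.87, and 37 genes were lower, against 1.38% of all genes, and none was higher, against 1.29%. From P14 to P21 none differed at an adjusted p under 0.05, against 0.266% lower and 0.063% higher among all genes, and 19 were lower at an unadjusted p under 0.05, with a median change of −0.25.

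The P8 to P14 step held 19 small subunit and 18 large subunit genes. Rpsa had the largest log2 change of those called, −1.48 ± 0.21 (SE, adjusted p = 0.00125), followed by Rpl10a at −1.41 ± 0.27 and Rps19 at −1.35 ± 0.16. The count of genes called at any of the steps rests on few libraries: it was 38 with all of them, 12 without P14 replicate 3, 15 without P8 replicate 2, 24 without P14 replicate 1 and 25 without P14 replicate 2. At an unadjusted p under 0.05, 70 of the 83 were lower at P14 than at P8.

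Among the genes with the steepest called falls were Rpsa, Rplp0, Rps2, Rps19 and Rpl13. Rpsa lies at chr9:120127689-120132369 on the plus strand of GRCm38, and its protein is a small subunit component also known as the laminin receptor. Its level was 466, 345 and 427 CPM in the P0 libraries, 363, 406 and 359 at P4, 229.6, 303 and 235 at P8, 104, 74.3 and 97.5 at P14 and 68.1, 44.9 and 65.7 at P21. No P8 library reached a P0 or P4 library, and no P14 library reached a P8 library. The slope was −0.15 ± 0.013 log2 units per day (adjusted p = 1.17e-07), and the P21 mean was 14.4% of the P0 mean.

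Rplp0, at chr5:115559467-115563727, encodes the base of the ribosomal stalk, the part of the large subunit that recruits elongation factors. Its level was 1193, 1053 and 1457 CPM at P0, 959.8, 1131 and 1077 at P4, 616, 746 and 593 at P8, 287, 319.9 and 246 at P14 and 133, 219 and 207 at P21. The libraries of P8 lay apart from those on either side. The slope was −0.14 ± 0.011 (adjusted p = 3.81e-08), with 6.63 times as much at P0 as at P21.

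The other stalk genes, Rplp1 and Rplp2, which encode the small acidic proteins that sit on Rplp0, had smaller ratios between P0 and P21. Rplp1 went from 721 CPM ± 58.2 at P0 to 203 CPM ± 41.4 at P21 (slope −0.097 ± 0.011). Rplp2 was at 497, 519.6 and 543 CPM at P0 and at 270.4, 323 and 217 CPM at P21, a ratio of 1.93 (slope −0.052 ± 0.0088). Relative to the summed ribosomal protein counts, a scale described below, Rplp0 fell and Rplp2 rose, although their proteins act in 1 complex.

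Rps19, mutated in some families with Diamond-Blackfan anaemia, stood at 561, 618 and 687 CPM at P0, at 339, 382 and 355 at P8 and at 112, 113 and 106 at P21. The P21 libraries lay close together, and each lay below every P14 library, at 147, 142 and 134 CPM. Rps2, a small subunit protein near the mRNA path, fell from 211 to 34.6 CPM, and Rpl13, of the large subunit, from 381 to 73.3 CPM. Their slopes were −0.14 ± 0.016 and −0.13 ± 0.011.

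**Figure D3:**
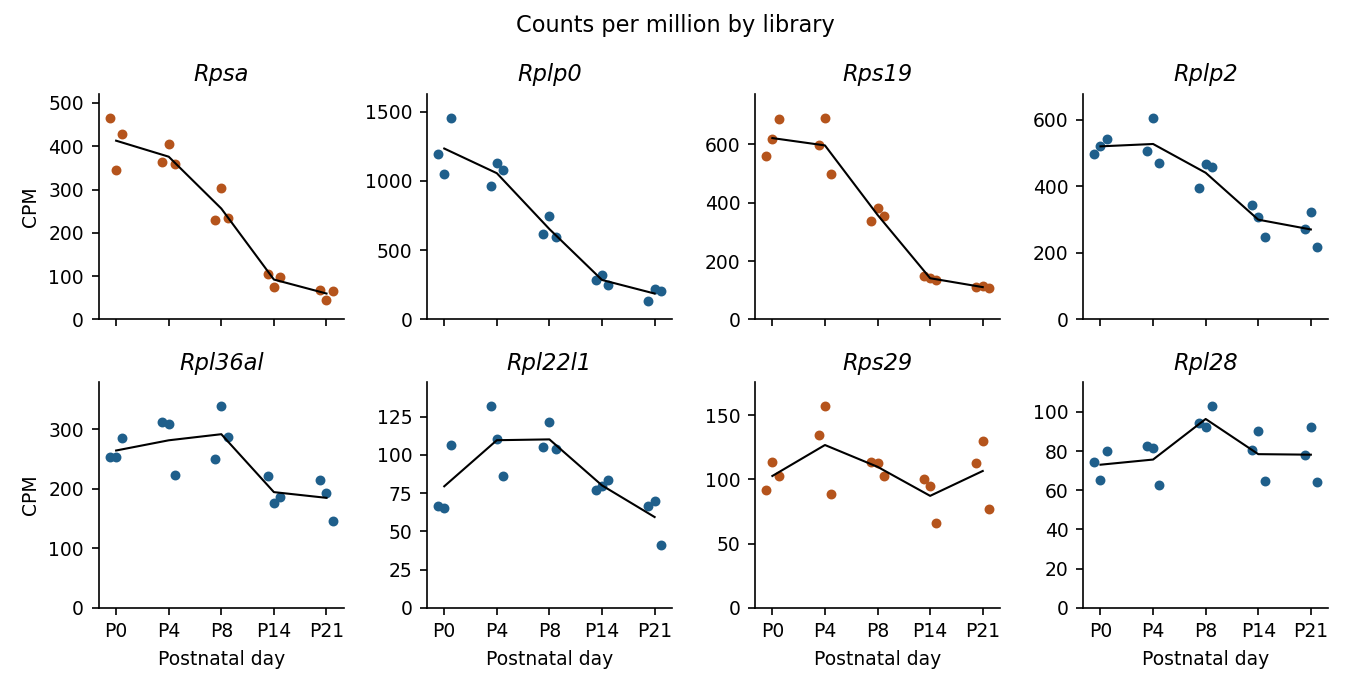
CPM (linear axis from 0) of 8 genes in each library (points) by postnatal day, with lines through the means. Rpsa, Rplp0, Rps19, Rplp2 and Rpl36al fell to between 14.4% and 69.9% of the P0 mean, whereas the P0 and P21 libraries of Rpl22l1, Rps29 and Rpl28 overlap.

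The 8 tested genes not called as falling included Rps12, Rpl10, Rpl12, Rpl22l1, Rps19bp1, Rps29 and Rpl28. These are described here because they were not called, so they were chosen after their values were seen. Rps12 (slope −0.15 ± 0.061, adjusted p = 0.073), with 143 counts over all libraries, and Rpl10 (slope −0.072 ± 0.027, adjusted p = 0.0584), with 1019, are among the tested genes with the fewest counts, and their slopes lay within the range of the genes that fell or below it. Rps29 and Rpl28 had 8377 and 6277 counts and slopes near 0.

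Rps29, a zinc-binding small subunit protein gene at chr12:69157722-69159186, was at 91.7, 114 and 102 CPM at P0 and at 113, 129.6 and 77.2 CPM at P21. Its slope was −0.0082 ± 0.012 (adjusted p = 0.666) and turned to 0.0073 with an offset for exon length. Rpl28, of the large subunit, at chr7:4792874-4795066, was at 74.2, 65.1 and 79.9 CPM at P0, 94.1, 92.1 and 103 at P8 and 78.1, 92.3 and 64.1 at P21. The P8 libraries were above all P0 and P4 libraries but not above all P21 libraries, and the slope of 0.0026 ± 0.011 (adjusted p = 0.897) turned to −0.014 under scaling by total counts. Of Rpl28's exon bases, 9.95% overlap exons of Ube2s on the opposite strand, and the strand setting of the counting is not given in the sources used here. None of these values shows that the genes kept a constant level, only that a trend was not called.

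To see how the genes moved against one another, the summed counts on all members were used as the library size, a choice made after seeing the data. On that scale 10 genes fell and 17 rose, where 3.59% of all genes fell and 52.7% rose, since the scale itself falls with age. The 10 included Rpsa, Rplp0, Rps19, Rps2, Rpl13, Rps26, Rps3a1, Rps18 and Rpl32, and 7 of the 10 are small subunit genes. The 17 that rose included Rpl28 (slope 0.091 ± 0.011), Rps29 (0.079 ± 0.0098) and Rps19bp1 (0.078 ± 0.020), and 12 of them are large subunit genes, among them Rpl22l1, Rpl36al (0.057 ± 0.0090), Rpl38, Rplp2 (0.035 ± 0.0074) and Rpl12. Without the P0 libraries 5 fell and 10 rose.

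Levels between genes were compared as RPKM, the counts per kilobase of exon scaled to the total counts on genes. Rpl32 had the highest mean RPKM over all libraries, 1031, followed by Rplp1 at 937 and Rpl41, which encodes the shortest of the ribosomal proteins, at 934. At the other end stood Rps12 at 0.984, Rpl10 at 6.42 and Rpl5 at 8.41, and the median of the 83 was 81.8. Genes whose proteins mostly sit in 1 copy in the ribosome were thus counted at levels that spanned the range from 0.984 to 1031. RPKM also depends on the summed length of all annotated exons, which was 383 bases in Rpl36 and 6270 in Rps15a. What sets the range was not tested. The annotation holds 23 named pseudogenes of Rps12, 5 of Rpl10 and 2 of Rpl5, and none of Rpl32 or Rpl41. Named pseudogenes are those whose symbol is the gene's own followed by -ps and a number. Copies under other names are not counted, so a gene with none may still have pseudogenes.

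Across the 83 genes, mean RPKM and the number of named pseudogenes had a Spearman correlation of −0.33. The 15 genes with 7 or more named pseudogenes had a median of 55.1 RPKM, and the 28 genes with none so named had 160 RPKM. Slope and this number had a Spearman correlation of 0.00047, with median slopes of −0.083 and −0.086 in those 2 sets. These correlations are across genes of the same libraries, which are not independent. Exons of 35 members overlap exons of another gene in the files, and in 8 over 10% of the exon bases do, among them Rpl35 with Wdr38 and Rpl23a with Tlcd1, both on the opposite strand, so their counts are less certain.

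Ribosomal protein genes are short, with a median summed exon length of 1770 bases beside 4334.5 over all genes tested. The other 1961 tested genes no longer than 1770 bases had a median slope of −0.012, and 16.8% of them fell. With an offset for exon length in the fit, 75 of the 83 members still fell, with a median slope of −0.076. Under scaling by total counts the median log2 change of all genes from P0 to P21 moved from −0.16 to −0.52, and 80 of the 83 then fell.

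Some ribosomal proteins have a paralog that can take their place. Of 8 pairs fixed for this report, 4 had at least 10 counts per library on average for both genes. Rpl22l1 can replace Rpl22 in the large subunit, and Rpl22 is known to hold down the level of Rpl22l1. The ratio of Rpl22l1 to Rpl22 counts was 0.262, 0.372 and 0.463 at P0, 0.733, 0.490 and 0.455 at P4, 0.682, 0.830 and 0.60 at P8, 0.648, 0.878 and 0.910 at P14 and 0.695, 0.726 and 0.538 at P21. Every P8, P14 and P21 library lay above every P0 library. Over the 15 libraries the log2 ratio rose with day (Pearson's r = 0.603, permutation p = 0.0161, adjusted over 4 pairs 0.0215, Spearman's rho = 0.622, permutation p = 0.0163, adjusted 0.0218), and r was 0.606 without 2 P21 libraries. The relation rests on the P0 libraries, with r = 0.278 and an adjusted permutation p of 0.376 without them, and r = 0.536 and an adjusted permutation p of 0.0653 without P0 replicate 1 alone.

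Rpl36al is a copy of Rpl36a on another chromosome, and Rpl36a itself is X-linked. Their ratio was 2.34 ± 0.212 at P0, 3.15 ± 0.623 at P4, then 3.13 ± 0.790 at P8, 3.55 ± 0.291 by P14 and 4.22 ± 1.60 by P21 (mean ± SD, n = 3). Replicate 1 of P21 stood apart at 6.05, beside 3.12 and 3.47. The trend had r = 0.666 (permutation p = 0.00573, adjusted 0.0115), rho = 0.622 (permutation p = 0.0162, adjusted 0.0218) and r = 0.634 without 2 P21 libraries, and without the P0 libraries r was 0.470 with an adjusted permutation p of 0.158. Rpl36al fell less steeply than Rpl36a, from 264 to 185 CPM (slope −0.032 ± 0.010, adjusted p = 0.0230) beside 113 to 46.3 CPM (slope −0.064 ± 0.012).

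Rps4l, a retrocopy of the X-linked Rps4x, is a transcribed pseudogene in the annotation and no member of the family as defined here. Its ratio to Rps4x went from 0.269 ± 0.121 at P0 and 0.199 ± 0.0881 at P4 to 0.517 ± 0.103 at P21 (r = 0.685, permutation p = 0.00421, adjusted 0.0115, rho = 0.742, permutation p = 0.00251, adjusted 0.0100, r = 0.697 without 2 P21 libraries). Without the P0 libraries r was 0.727, with an adjusted permutation p of 0.0179. Rps4x fell from 430 to 105 CPM, and Rps4l was at 111 CPM at P0 and 54.5 CPM at P21 (adjusted p = 0.0693).

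Rpl7l1, a paralog of Rpl7 that works in ribosome assembly, had the weakest of the 4 trends (r = 0.524, permutation and adjusted p = 0.0414, rho = 0.447 with permutation p = 0.0995, r = 0.80 without 2 P21 libraries). Its ratio to Rpl7 was 0.145 ± 0.0304 at P0 and 0.215 ± 0.129 at P21, where replicate 3 stood at 0.362 and the other libraries at 0.123 and 0.160. Leaving out 1 library at a time took the adjusted permutation p past 0.05 in 11 of 15 cases, and without P21 replicate 3 r was 0.359 (adjusted permutation p = 0.209). The other pairs could not be compared. Rpl10l had 0 counts, Rpl3l 38 and Rpl39l 10 over all libraries, genes known for expression in testis or striated muscle, and Rps27 had 5 although its paralog Rps27l had 6730. Rps27 has near-identical copies and reads were kept only where they mapped to a single place, so its value is uncertain, and how far this lowers its count was not tested. Rps27l fell from 120 to 35.8 CPM (slope −0.094 ± 0.014), and Rps27rt, a retrotransposed copy of Rps27, fell from 44.9 to 11.9 CPM.

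**Figure D4:**
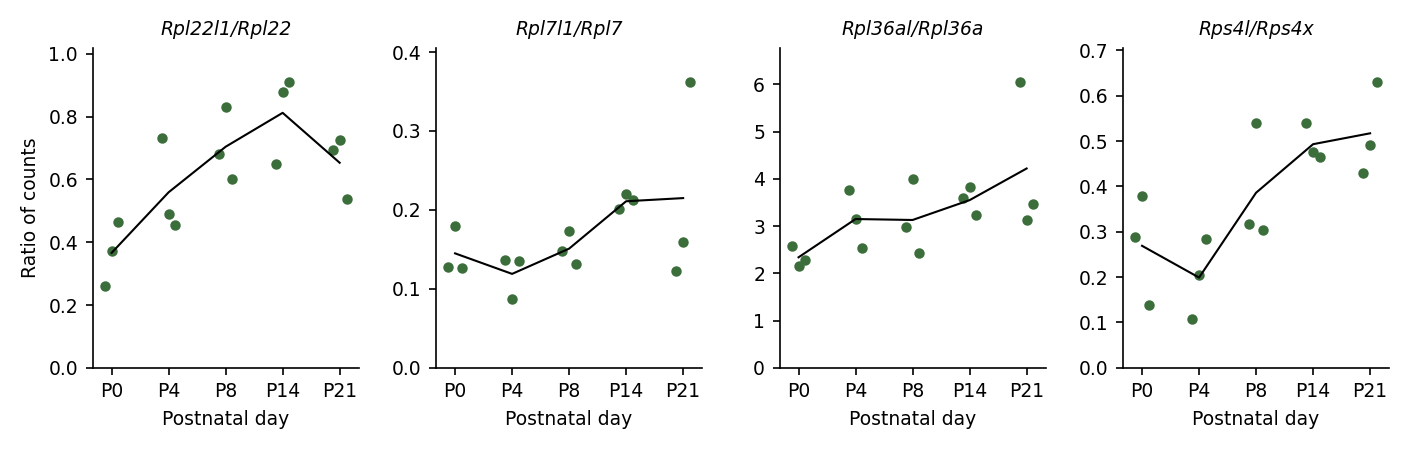
Ratio of counts of 4 paralogs to their parent genes (linear axes from 0) in each library by postnatal day, with lines through the means. P0 libraries of Rpl22l1/Rpl22 lie at 0.262 to 0.463, and single P21 libraries stand apart in Rpl7l1/Rpl7 at 0.362 and in Rpl36al/Rpl36a at 6.05.

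The 4 members on the X chromosome are Rpl10, Rpl36a, Rpl39 and Rps4x, and 3 of them fell, Rpl10 being the one not called. Across the family 75 of the 83 tested genes fell, and 14.1% of all genes tested. Rpl39 was at 347, 291 and 423 CPM at P0 and at 146, 177 and 72.5 CPM at P21 (slope −0.082 ± 0.014), so the P21 libraries lay below all P0 libraries although replicate 3 was far under the others. Rps6, whose protein the S6 kinases phosphorylate, fell from 41.0 to 17.9 CPM (slope −0.074 ± 0.017, adjusted p = 0.00303). It is named here for that role, chosen after its values were seen.

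Sequence around the transcription start is shown for genes that fell steeply, for Rpl28, which was not called, and for paralog pairs, because terminal pyrimidine runs are the feature this family is known for. The windows are RefSeq's on GRCm38.p6, from 40 bases before the annotated start to 20 after it, in the direction of the gene, and the capitals mark the longest run of C and T. In order they lie at chr9:120127726-120127785, chr5:115559427-115559486, chr17:24720023-24720082, chr8:123102310-123102369, chr7:4792925-4792984, chr4:152325686-152325745, chr3:28805468-28805527, chrX:134585614-134585673 and, on the minus strand, chr12:69184048-69184107.
Rpsa: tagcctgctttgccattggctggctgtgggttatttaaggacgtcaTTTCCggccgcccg
Rplp0: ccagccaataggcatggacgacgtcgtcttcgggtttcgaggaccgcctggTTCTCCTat
Rps2: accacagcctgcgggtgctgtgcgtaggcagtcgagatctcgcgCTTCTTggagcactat
Rpl13: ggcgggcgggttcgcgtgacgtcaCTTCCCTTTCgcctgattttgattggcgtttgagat
Rpl28: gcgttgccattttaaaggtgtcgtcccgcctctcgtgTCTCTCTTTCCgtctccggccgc
Rpl22: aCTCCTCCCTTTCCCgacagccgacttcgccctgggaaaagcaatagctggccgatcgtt
Rpl22l1: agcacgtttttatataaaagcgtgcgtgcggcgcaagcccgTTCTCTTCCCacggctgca
Rpl36a: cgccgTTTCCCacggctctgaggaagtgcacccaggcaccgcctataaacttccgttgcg
Rpl36al: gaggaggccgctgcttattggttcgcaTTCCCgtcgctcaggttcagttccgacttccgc

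Rpl28, which was not called, has a run of 11 pyrimidines across its start. Among genes that fell, Rpl13 has a run of 10 that ends before its annotated start. Rpsa and Rplp0, which fell too, have longest runs of 5 and 7 that begin 6 and 11 bases after their annotated starts, not at them. Of the members, 65 matched RefSeq starts, with 77 windows. A run of 8 or more pyrimidines lay in 50.6% of these 77 windows and in 24.2% of all 32851. Both strands of the 300 bases from 250 before to 50 after the start were also searched for 3 motifs. The core of the YY1 site, spelled ATGGCGG, lay in 18.2% of the members' windows and 4.06% of all. The core of ETS sites, spelled GGAAG, lay in 93.5% of the members' windows and 71.4% of all. The TATA box, spelled TATAAA, lay in 9.09% of the members' windows and 13.6% of all. These are matches of letters, not sites, and neither the motifs nor the runs were compared with the slopes.

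Other translation genes were described from lists chosen by function. Of 3 ribosomal proteins with names outside the Rpl and Rps pattern, Rack1, a scaffold on the small subunit, was among the 2 that fell, from 639 to 214 CPM. Fau, which encodes a ubiquitin-like protein joined to a small subunit protein, was at 164 CPM at P0 and 126 CPM at P21 (adjusted p = 0.170). Among 12 genes of elongation and termination 6 fell and 2 rose, with a median slope of −0.034, where 14.1% of all genes tested fell and 12.1% rose. Eef1a1, which brings aminoacyl-tRNA to the ribosome, fell from 2338 to 385 CPM (slope −0.13 ± 0.0090), and its paralog Eef1a2, the form of mature neurons and muscle, rose from 15.7 to 71.2 CPM (slope 0.097 ± 0.020, adjusted p = 0.00117). Eef1e1, of the aminoacyl-tRNA synthetase complex, fell, and Eif5a2 rose from 13.9 to 69.3 CPM.

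Of 38 initiation factor genes 11 fell and 3 rose, with a median slope of −0.015, beside 14.1% falling and 12.1% rising among all genes tested. Eif3h, a subunit of eIF3, fell from 387 to 133 CPM and Eif1a, which helps scan for the start codon, from 101 to 37.2 CPM, while Eif4g3, a scaffold at the cap, rose from 212 to 433 CPM and Eif5 from 113 to 273 CPM. Of 18 other genes known for terminal pyrimidine tracts, a list that holds Eef1a1, Eif3h and Rack1 too, 14 fell and none rose in edgeR's, DESeq2's and limma's tests (in edgeR's, 15 were lower and 0 higher at an unadjusted p under 0.05), with a median slope of −0.066, and Hnrnpa1, an RNA-binding protein gene, fell from 227 to 55.8 CPM.

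**Figure D5:**
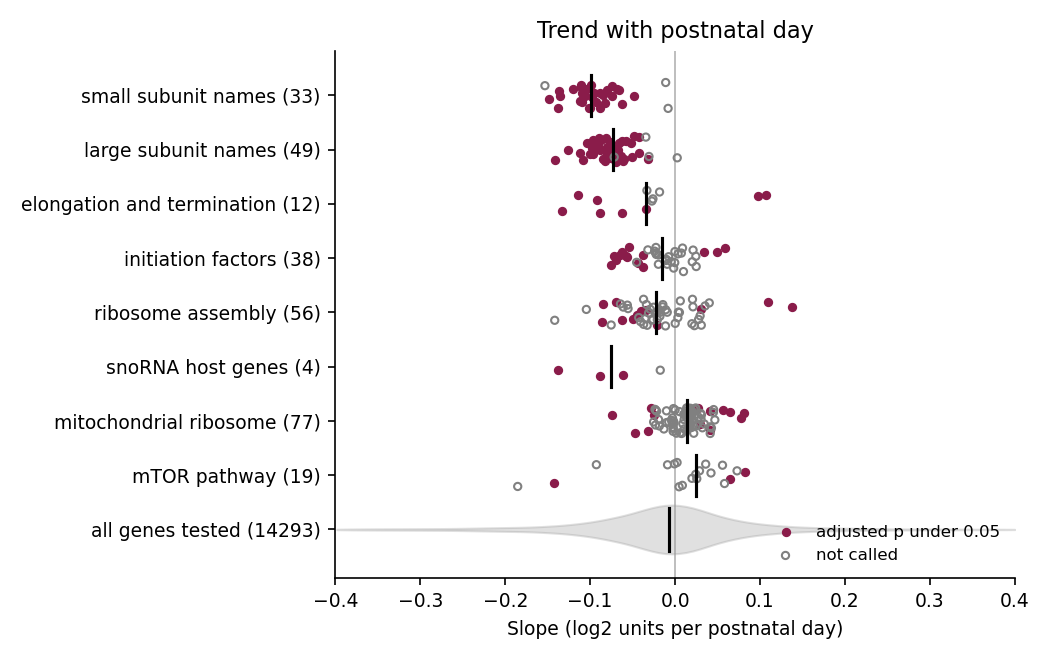
Slope of each tested gene (log2 units per postnatal day, horizontal axis) in the ribosomal protein genes and other lists, with numbers tested in brackets, filled points for an adjusted p under 0.05, bars for medians and the spread of all 14293 genes below, of which 213 lie past the axis. Medians run from −0.099 in small subunit genes to 0.024 in the mTOR list, beside −0.0077 over all genes.

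Of 56 genes that act in ribosome assembly 9 fell and 3 rose, with a median slope of −0.022, where 14.1% of all genes tested fell and 12.1% rose, so the falling share is near that of all genes. Rrp9 fell from 26.3 to 9.10 CPM and Imp4 from 45.0 to 10.6 CPM, both of the small subunit processome, whereas Polr1b, a core subunit of RNA polymerase I, rose from 8.24 to 38.6 CPM and Rrp12 from 2.68 to 27.5 CPM. Of 4 snoRNA host genes 3 fell, among them Gas5 (731 to 212 CPM) and Snhg5 (92.2 to 11.9 CPM), with Snhg1 and Snhg8 not analysed here.

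The 77 genes of the mitochondrial ribosome had a median slope of 0.014, with 5 falling and 8 rising, shares no higher than the 14.1% and 12.1% of all genes tested. Mrpl23 fell from 23.8 to 9.51 CPM and Mrpl52 from 84.2 to 49.99 CPM, and Mrpl49 rose from 39.6 to 125 CPM and Mrps25 from 55.9 to 156 CPM. In the mTOR list, 1 of 19 tested genes fell and 2 rose, shares no higher than the 14.1% and 12.1% of all genes tested. The gene that fell was Mycn, a transcription factor that granule cell progenitors also express, from 93.2 to 18.7 CPM. Rictor, of mTOR complex 2, rose from 47.1 to 161 CPM and Rheb, the activator of mTOR complex 1, from 148 to 337 CPM. Of 9 tested S6 kinase genes, the ones left out by the rule, none changed in edgeR's or DESeq2's test, and Rps6kc1, named after its values were seen, was higher at an unadjusted p under 0.05 in edgeR's test and rose in limma's.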

How the data were processed

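RNA of laser-captured mouse PCs was amplified with a SMARTer kit and sequenced by the authors. Per the labels and the paper's methods, reads were trimmed with cutadapt 1.2.1, aligned to mm10 with GSNAP and, where they mapped uniquely, counted per Ensembl gene with HTSeq 0.5.3p9. These counts, not normalized, are what was deposited, and HTSeq's tallies of reads not assigned to a gene stayed out of library sizes.

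From the counts, edgeR 4.0.16 in R 4.3.3 was fitted to all genes that passed filterByExpr (14293), with TMM scaling and Benjamini-Hochberg adjustment at 0.05. Postnatal day entered as a number for slopes, and as a factor for any pattern and for the steps. Slope errors are the slope over the root of F. Scripts were tested on simulated data. The biological coefficient of variation was 0.757 in the fit of slopes. Slope p-values measure the spread of libraries around a straight line in day, which includes any bend in the course over age. P-values of the factor and step tests measure the spread between the 3 replicates of each age. A count of 0 lies under 3 counts, or 0.384 to 0.880 CPM depending on the library, for counting error only. GENCODE M21 (GRCm38) gave names, positions and exon lengths for 36639 rows. Paralog ratios added 0.5 to each count and used 100000 permutations, two-sided (Python 3.11.15, scipy 1.17.1). The 2 libraries left out of r are P21 replicates 1 and 2, since all P21 libraries tie. DESeq2 1.42.0, limma 3.58.1 and leaving out libraries were alternatives.

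Members and gene lists were chosen with earlier results of these data known. Named genes were the 6 steepest called falls with at least 10 CPM, the 3 highest and 3 lowest by RPKM, the paralog, stalk and X-linked genes, and the 2 steepest called each way in each other list. Some of these are not reported here.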

Additional observations from a re-analysis of the deposited data

Results flagged for a closer look

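Rows named as ribosomal protein pseudogenes, which no comparison of the report used, held counts too: on average 0.380% of the counts on genes at P0, 0.350% at P4 and 0.253% at P8, then 0.126% by P14 and 0.104% by P21. There were 11.4 such counts per 100 counts on the ribosomal protein genes at P0, 11.9 at P4 and 11.7 at P8, then 11.8 by P14 and 12.5 by P21. Of 227 such rows 187 held a count in some library and 56 were tested. In edgeR's test 31 of the 56 fell, where 14.1% of all genes tested fell and 12.1% rose. None of the 56 rose in edgeR's, DESeq2's or limma's test. At an unadjusted p under 0.05, 38 were lower and 0 higher in edgeR's test. Their median slope was −0.084 log2 units per day. Whether these reads came from the pseudogenes or from the parent mRNAs was not tested.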

How the results depend on the processing

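Each result was recomputed under other settings. The count of 75 falling genes ranged from 69 with log2(day + 1) to 80 with total counts, and from 73 to 76 with 1 library left out. 72 fell in all 15 of those fits and 66 in every setting run. No gene of the family rose in any of them (0 to 0). The count changing in any pattern was 62 to 68 with 1 library left out, and that at any step 12 to 41. Replicate numbers did not pair the libraries (30 pairs of the same number, mean correlation of deviations −0.0033, none over 0.1), and with a replicate block 75 genes fell, 66 changed in any pattern and 34 at a step. Under the block, with days permuted within a number, Rpl7l1/Rpl7 had r = 0.524 and an adjusted permutation p of 0.0559. Relative to the summed member counts, 8 to 11 genes fell and 13 to 17 rose with 1 library left out, and without P0 5 fell and 10 rose. Paralog correlations with 1 library left out were 0.536 to 0.699 for Rpl22l1/Rpl22, 0.359 to 0.691 for Rpl7l1/Rpl7, 0.572 to 0.740 for Rpl36al/Rpl36a and 0.634 to 0.753 for Rps4l/Rps4x, and without P0 0.278, 0.563, 0.470 and 0.727. Without the 3 genes with most counts the shares were 2.79, 2.47, 1.84, 0.921 and 0.706% from P0 to P21. Slopes changed sign for Rpl28 (−0.014 with total counts, −0.0039 without P0, −0.0017 to 0.0086 with 1 library left out), Rps19bp1 (0.0067 without P0, −0.026 to 0.0029) and Rps29 (0.0073 with an exon length offset). The cause was not tested. Among the other slopes of named genes, 1463 values kept sign and side of the threshold, 49 lost the call and 16 gained it. Imp4 lost it in 9 of the 15 fits with 1 library left out, and Rrp12 in 11.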

Other observations

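Ribosomal protein genes mutated in Diamond-Blackfan anaemia, a failure of red cell formation, were a further list. Of 17 such genes 16 were tested and 14 fell, with a median slope of −0.071 log2 units per day and a median ratio of P0 to P21 levels of 2.54. Across the whole family 75 of 83 tested genes fell, with a median slope of −0.081 and a median ratio of 2.87. The list thus lay near the family it was taken from. Among all genes tested 14.1% fell. Rps29 was among those not called, and Rps27 was not tested. The summed level of 5 erythroid markers was 806 CPM at P0, 181 CPM at P4, 431 CPM at P8, 298 CPM at P14 and 660 CPM at P21, and did not follow the ribosomal protein genes in order.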
